A study of Mus musculus with 54 samples.

Results

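Ribosome biogenesis was followed in haematopoietic stem cells (HSC) of mice through 38 nucleolar genes, picked by name out of the 24421 genes of the deposited count table, and all 38 had counts high enough to be tested. They comprise 5 genes of RNA polymerase I and its factors (Polr1a, Polr1b, Polr1c, Rrn3, Ubtf), 3 of the box C/D small nucleolar ribonucleoprotein or snoRNP (Nop56, Nop58, Fbl) and 4 of the box H/ACA snoRNP (Dkc1, Nhp2, Nop10, Gar1). A further 4 encode nucleolar scaffold and chaperone proteins (Npm1, Ncl, Nolc1, Mybbp1a). The remaining genes act in subunit assembly, 8 in the small subunit (Heatr1, Wdr43, Wdr75, Rrp9, Nop14, Noc4l, Rrp12, Nob1) and 14 in the large subunit (Bop1, Pes1, Wdr12, Nop2, Nop16, Rrp1, Rrp1b, Rrs1, Gnl2, Gnl3, Ftsj3, Nip7, Noc2l, Noc3l).

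Ribosomes are made in the nucleolus, where RNA polymerase I copies the ribosomal DNA repeats into a long precursor RNA. The snoRNPs guide chemical modification of that precursor, and assembly factors cut it, fold it and load it with ribosomal proteins in separate small-subunit and large-subunit paths. Resting HSC are known for a low rate of protein synthesis, and ribosome production is known to be braked after DNA damage and raised when cells enter the cell cycle.

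The mice carried a ZsGreen reporter in the Fgd5 locus on a C57BL/6 background, and HSC were sorted from bone marrow by the SLAM-LSK(wide) gate and ZsGreen, so that Fgd5 expression was part of the sort. They received dimethyl prostaglandin E2 (dmPGE2), a prostaglandin analogue that is broken down slowly, or its ethanol vehicle under the skin 30 min before irradiation with 8.53 Gy, a dose lethal to 50% of mice. For dmPGE2 the labels state 35 µg, whereas the stated 3.5 µL of a 0.1 mg/ml stock holds 0.35 µg, so the dose is uncertain. The 6 groups were irradiated dmPGE2 HSC at 24 h (8 libraries), irradiated vehicle HSC at 24 h (8), irradiated dmPGE2 HSC at 1 h (8), irradiated vehicle HSC at 1 h (8), non-irradiated dmPGE2 HSC at 1 h (7) and non-irradiated vehicle HSC (15, of which the labels place 8 at 1 h and 7 at 24 h). The columns of the non-irradiated vehicle group name no time, and these libraries were pooled as the baseline. The ages of the mice are not in the labels, and non-irradiated dmPGE2 HSC at 24 h were not analysed here.

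The 54 libraries held 15049364 to 26217041 counted reads each, and 14320 genes were tested. The HSC genes Fgd5 (41.8 to 124 CPM, read counts scaled to a common library size) and Kit (497 to 1990 CPM) were detected in every library, while the globin genes Hba-a2, Hbb-bs and Hbb-bt were at 0 in all 54. Of the 15 non-irradiated vehicle columns, 14 fall into 7 pairs with the same tag in their names, 1 of each pair numbered S42 to S70 in its name and the other S79 to S85. The columns of a pair deviate together from the means of those subsets (r = 0.397 to 0.705) and have the same sex in their counts. The 15 columns may therefore come from 8 mice, and p-values against this group are then too small. By their counts 5 of the 15 columns are female and 10 male, whereas the labels give 7 and 8, so which samples make up this baseline is uncertain, as are the stated 8 at 1 h and 7 at 24 h. A fit with the columns of a tag summed is given beside each result that it changes. Irradiated columns at 1 h are numbered S44 to S72 in their names and those at 24 h S86 to S101. In comparisons of 24 h with 1 h, time and column number therefore cannot be told apart. Libraries of 3 groups stood apart in the members. Irradiated vehicle 1 h library 3 had a mean over the members of 6.45 log2 CPM, where the next library of its group had 6.99. Irradiated dmPGE2 24 h libraries 5, 6 and 7 had 6.72, 6.71 and 6.57, against 7.10 to 7.39 in the other 5. Irradiated dmPGE2 1 h library 6 had the highest mean of its group, at 7.52.

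Per kilobase of exon, the members differed widely in level. Nop10 had a median of 319 CPM per kb over all 54 libraries and Npm1 had 310, followed by Rrp1 at 174 and Nop56 at 132. The lowest were Rrp12 at 13.3, Polr1a at 10.7 and Noc3l at 7.06 CPM per kb. Close transcript copies elsewhere in the genome, with at least 90% identity over at least 50% of the length, exist for 4 members, so their counts are uncertain. These are Fbl (highest identity 99.6%), Pes1 (95.4%), Npm1 (94.9%) and Rrs1 (94.9%). Of the exon bases of Noc2l, 21.47% also lie in Samd11 on the opposite strand, and the library kit marks no strand, so reads of both genes cannot be told apart there.

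Averaged over the 38 genes the groups differed little. Mean log2 CPM per library had a median of 7.11 (6.57 to 7.39) in irradiated dmPGE2 HSC at 24 h, 7.11 (6.95 to 7.26) in irradiated vehicle HSC at 24 h, 7.07 (6.80 to 7.52) in irradiated dmPGE2 HSC at 1 h and 7.10 (6.45 to 7.16) in irradiated vehicle HSC at 1 h. It was 6.91 (6.83 to 7.17) in non-irradiated dmPGE2 HSC and 6.98 (6.61 to 7.18) in non-irradiated vehicle HSC. The ranges of all groups overlapped.

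**Figure D1:**
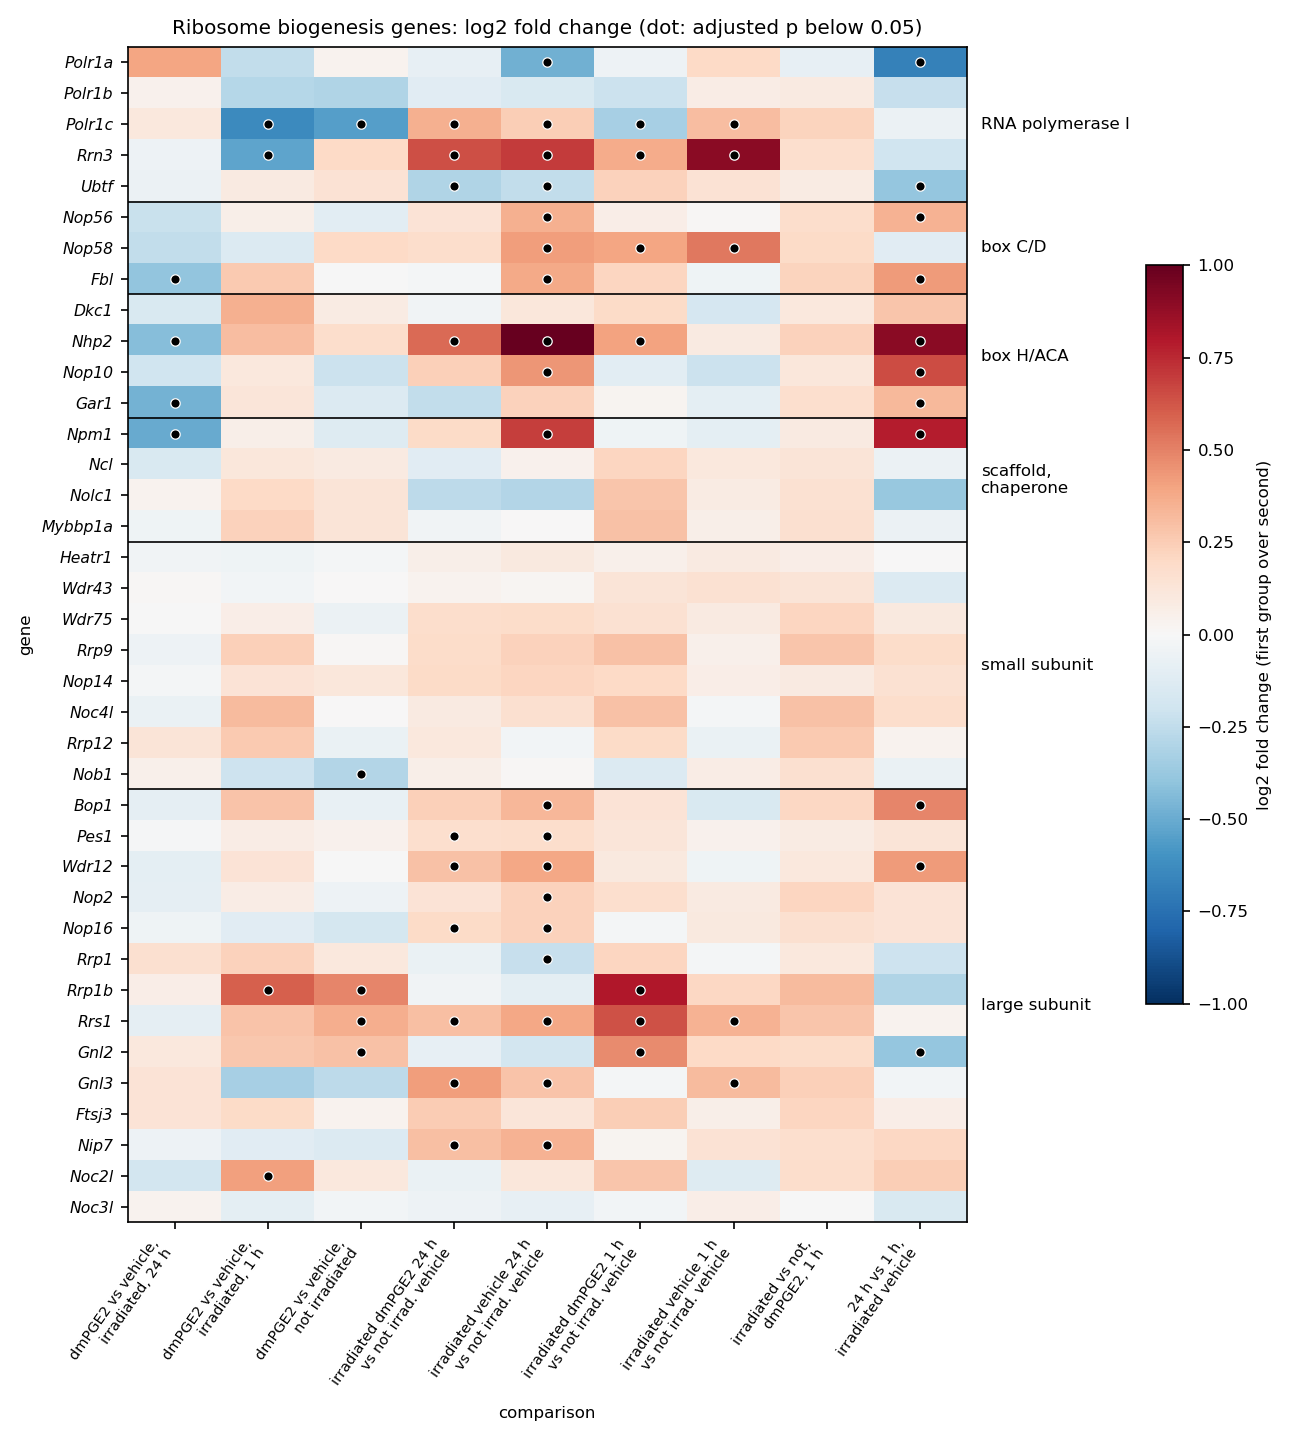
Log2 fold change of each member (rows, ordered by role) in each comparison (columns, first group over second), with marks on those that passed an adjusted p of 0.05. The strongest colours fall on single genes: Rrn3 and Nhp2 against non-irradiated vehicle HSC, Polr1c and Rrp1b under dmPGE2 at 1 h, and Npm1 at 24 h.

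Calls below are from edgeR's quasi-likelihood test at a Benjamini-Hochberg adjusted p below 0.05 over all genes tested, and log2 fold changes are given with their standard error (SE). In irradiated vehicle HSC at 1 h, 5 members rose and 0 fell against non-irradiated vehicle HSC, where 16% of all genes tested were called (8.65% higher, 7.31% lower). At 24 h, 16 rose and 3 fell, where 49.7% of all genes were called (23.3% higher, 26.5% lower), so the total of 19 of 38 was near the background. In irradiated dmPGE2 HSC, 9 rose and 1 fell at 24 h (background 36.4% of all genes, 19% higher and 17.3% lower) against non-irradiated vehicle HSC. At 1 h, 6 rose and 1 fell (background 18.3%, 9.55% higher and 8.76% lower). In non-irradiated dmPGE2 HSC, 3 rose and 2 fell (background 11.1%, 5.28% higher and 5.82% lower). With dmPGE2 set against vehicle in irradiated HSC, 0 rose and 4 fell at 24 h (background 23.9%, 12.4% higher and 11.5% lower). At 1 h, 2 rose and 2 fell (background 14.8%, 7.04% higher and 7.77% lower). With the tag columns summed, 2 of the 5 members called in irradiated vehicle HSC at 1 h were called (2 higher), and 2 of the 5 in non-irradiated dmPGE2 HSC (2 lower). Against the non-irradiated vehicle columns S79 to S85 alone, 10 members rose and 0 fell in irradiated vehicle HSC at 24 h, and 6 were called in irradiated dmPGE2 HSC at 24 h. Heatr1, not called with all libraries, was among those 10, so several of the 16 rises were lost there, as were the 3 falls. Over all comparisons that use non-irradiated vehicle HSC, 29 member calls were kept against those columns and 18 were lost. Which rises were lost there is not marked gene by gene below, so a rise printed below may be among them. The background shares are those of the fit to all libraries, and counts under other fits are given without one. All comparisons with non-irradiated vehicle HSC share those libraries, so their values stand side by side and are not independent of each other. In these bulk samples fewer cells of a type and less RNA per cell cannot be told apart.

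In irradiated vehicle HSC at 1 h, and in both irradiated groups at 24 h, the member with the smallest adjusted p against non-irradiated vehicle HSC was Rrn3, which encodes the growth-regulated factor TIF-IA that brings RNA polymerase I to its promoter (chr16:13780699-13814841, mm10, plus strand). Rrn3 had 122 to 191 CPM (median 156) in irradiated dmPGE2 HSC at 24 h and 136 to 180 (160) in irradiated vehicle HSC at 24 h. At 1 h, Rrn3 had 104 to 157 (123) in irradiated dmPGE2 HSC and 136 to 218 (191) in irradiated vehicle HSC. In non-irradiated HSC, Rrn3 had 94.4 to 137 (107) with dmPGE2 and 80 to 119 (99.8) with vehicle. All 8 libraries of irradiated vehicle HSC at 1 h and all 16 irradiated libraries at 24 h lay above all 15 non-irradiated vehicle libraries, while irradiated dmPGE2 HSC at 1 h overlapped with them. Against non-irradiated vehicle HSC the log2 fold change was 0.90 (SE 0.0785, adjusted p = 6.93e-14) in irradiated vehicle HSC at 1 h and 0.37 (SE 0.0795, adjusted p = 0.000365) in irradiated dmPGE2 HSC at 1 h. At 24 h it was 0.65 (SE 0.079, adjusted p = 2.21e-09) in irradiated dmPGE2 HSC and 0.70 (SE 0.0788, adjusted p = 1.46e-10) in irradiated vehicle HSC.

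Rrn3 was also the member for which the dmPGE2 effect depended on radiation. In irradiated HSC at 1 h, Rrn3 fell by 0.53 on the log2 scale in dmPGE2 HSC against vehicle HSC (SE 0.092, adjusted p = 1.67e-05), while in non-irradiated HSC dmPGE2 against vehicle gave a log2 fold change of 0.20 (adjusted p = 0.118). The test of the difference between those effects gave −0.73 (SE 0.124, adjusted p = 3.65e-05), and Rrn3 was the single member called among 38, where 2.97% of all genes were called (1.17% higher, 1.8% lower). It was the single call under each alternative tried, with values from −0.88 against the non-irradiated vehicle columns with S79 to S85 in their names to −0.61 against those with S42 to S70. At 24 h Rrn3 had nearly the same level in irradiated dmPGE2 and vehicle HSC (log2 fold change −0.05, SE 0.0918, adjusted p = 0.74), and the dmPGE2 effect at 24 h minus that at 1 h was 0.48 (SE 0.13, adjusted p = 0.00449).

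**Figure D2:**
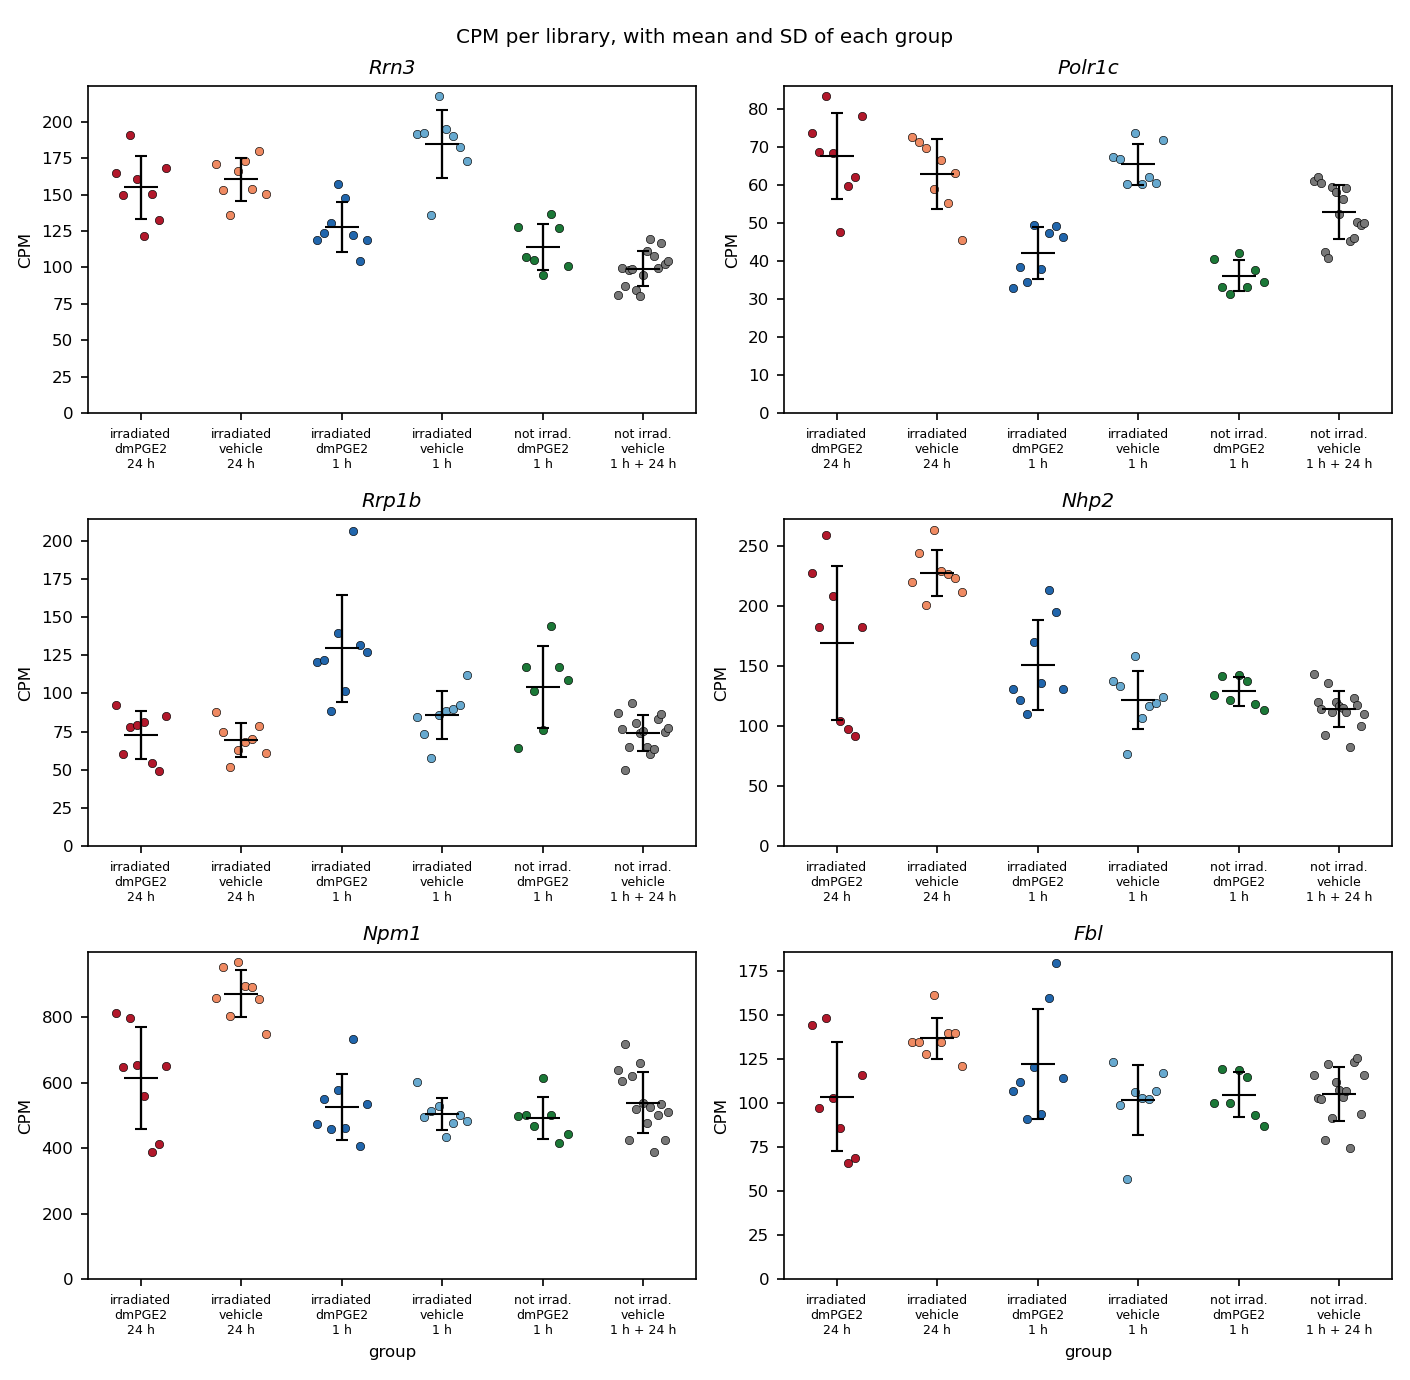
CPM of Rrn3, Polr1c, Rrp1b, Nhp2, Npm1 and Fbl in every library (points) by group, with the group mean and SD (bars). Rrn3 lies at 136 to 218 CPM in irradiated vehicle HSC at 1 h and at 80 to 119 CPM in non-irradiated vehicle HSC, and Polr1c at 33.0 to 49.5 CPM in irradiated dmPGE2 HSC and 60.2 to 73.8 CPM in irradiated vehicle HSC at 1 h.

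Polr1c, a subunit shared by RNA polymerases I and III (chr17:46243920-46248045, minus strand), was lower with dmPGE2 than with vehicle at 1 h, with and without radiation. Polr1c had 47.7 to 83.4 CPM (median 68.4) in irradiated dmPGE2 HSC at 24 h and 45.4 to 72.5 (64.9) in irradiated vehicle HSC at 24 h. At 1 h, Polr1c had 33.0 to 49.5 (42.3) in irradiated dmPGE2 HSC and 60.2 to 73.8 (64.4) in irradiated vehicle HSC. In non-irradiated HSC, Polr1c had 31.4 to 42.1 (34.4) with dmPGE2 and 40.7 to 62.2 (52.3) with vehicle. All 8 irradiated dmPGE2 libraries at 1 h lay below all 8 irradiated vehicle libraries at 1 h. The dmPGE2 effect at 1 h was −0.64 in irradiated HSC (SE 0.104, adjusted p = 4.42e-06) and −0.55 in non-irradiated HSC (SE 0.097, adjusted p = 2.64e-05), and the difference between them was −0.09 (SE 0.14, adjusted p = 0.876). At 24 h the dmPGE2 effect in irradiated HSC was 0.11 (SE 0.103, adjusted p = 0.494), and it differed from that at 1 h by 0.75 (SE 0.146, adjusted p = 0.000126).

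Against non-irradiated vehicle HSC, Polr1c fell in irradiated dmPGE2 HSC at 1 h (log2 fold change −0.33, SE 0.0915, adjusted p = 0.00576) and rose in the other irradiated groups. The rise was 0.36 in irradiated dmPGE2 HSC at 24 h (SE 0.0892, adjusted p = 0.00126), 0.25 in irradiated vehicle HSC at 24 h (SE 0.0895, adjusted p = 0.0175) and 0.31 in irradiated vehicle HSC at 1 h (SE 0.0893, adjusted p = 0.0114). With the tag columns summed, the call at 1 h in irradiated vehicle HSC was lost (adjusted p = 0.0552).

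The other polymerase genes were Polr1a, Ubtf and Polr1b. Polr1a, the largest and catalytic subunit, had 51.7 to 77.3 CPM (median 63.6) in irradiated dmPGE2 HSC at 24 h and 29.6 to 66.6 (50) in irradiated vehicle HSC at 24 h. At 1 h, Polr1a had 57 to 79 (63.3) in irradiated dmPGE2 HSC and 55.7 to 97.3 (76.2) in irradiated vehicle HSC. In non-irradiated HSC, Polr1a had 53 to 84.7 (68.5) with dmPGE2 and 37.1 to 111 (65.8) with vehicle. It was lower in irradiated vehicle HSC at 24 h than in irradiated vehicle HSC at 1 h (log2 fold change −0.68, SE 0.163, adjusted p = 0.000444) and than in non-irradiated vehicle HSC (−0.48, SE 0.144, adjusted p = 0.0048), with overlapping ranges. Against the non-irradiated vehicle columns S79 to S85 alone the second value was −0.15 (adjusted p = 0.433). The dmPGE2 effect on Polr1a at 24 h minus that at 1 h was 0.64 (SE 0.229, adjusted p = 0.0329), though neither effect passed on its own (adjusted p = 0.0697 at 24 h and 0.365 at 1 h).

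Ubtf, the upstream binding factor that coats active ribosomal DNA, had 99.6 to 140 CPM (median 114) in irradiated dmPGE2 HSC at 24 h and 100.8 to 153 (123) in irradiated vehicle HSC at 24 h. At 1 h, Ubtf had 138 to 210 (171) in irradiated dmPGE2 HSC and 118 to 188 (166) in irradiated vehicle HSC. In non-irradiated HSC, Ubtf had 139 to 194 (163) with dmPGE2 and 111 to 183 (147) with vehicle. It was lower at 24 h than in non-irradiated vehicle HSC in both irradiated dmPGE2 HSC (−0.30, SE 0.0954, adjusted p = 0.0107) and irradiated vehicle HSC (−0.24, SE 0.0951, adjusted p = 0.0293), and lower in irradiated vehicle HSC at 24 h than at 1 h (−0.38, SE 0.108, adjusted p = 0.00232). Both calls against non-irradiated vehicle HSC were lost with the columns S79 to S85 alone (adjusted p = 0.197 with dmPGE2 and 0.313 with vehicle), and the dmPGE2 one without irradiated dmPGE2 24 h libraries 5 to 7 (−0.19, adjusted p = 0.169). Polr1b, the other large subunit, was not called in any of these comparisons with all libraries.

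The promoters of Rrn3 and Nhp2 are shown because these genes had the largest changes in irradiated vehicle HSC at 24 h against non-irradiated vehicle HSC, the comparison with the most calls. Each runs from 250 bases before the start site to 50 after it, on the plus strand, from RefSeq on GRCm38.p6 (Rrn3 at chr16:13780449-13780748 and Nhp2 at chr11:51619523-51619822). Capitals mark CACGTG, the E-box that Myc and related factors can bind.
Rrn3: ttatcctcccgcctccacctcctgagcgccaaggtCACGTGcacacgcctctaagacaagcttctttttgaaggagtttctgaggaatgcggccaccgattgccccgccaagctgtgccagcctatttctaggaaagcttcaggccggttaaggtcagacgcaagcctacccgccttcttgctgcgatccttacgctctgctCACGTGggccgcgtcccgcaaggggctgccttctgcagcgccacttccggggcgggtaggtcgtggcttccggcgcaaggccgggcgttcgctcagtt
Nhp2: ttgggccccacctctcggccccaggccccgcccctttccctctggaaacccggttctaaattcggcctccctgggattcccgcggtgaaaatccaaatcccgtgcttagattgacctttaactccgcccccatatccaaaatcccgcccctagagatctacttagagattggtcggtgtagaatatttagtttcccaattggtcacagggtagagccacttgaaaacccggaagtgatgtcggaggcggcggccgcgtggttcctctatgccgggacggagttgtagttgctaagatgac
The Rrn3 promoter holds CACGTG at −215 and −48 from the start site, and that of Nhp2 holds none. Of the 32 members with a promoter in the table, 5 hold CACGTG on either strand (15.6%; Rrn3, Mybbp1a, Wdr43, Pes1 and Nop2), against 7.2% of all 32851 promoters. GGGCGG, the letters of a GC box, occurs on either strand in 71.9% of the members' promoters and 35.7% of all, and CCAAT in 28.1% of the members' and 37.4% of all. A match is a description of letters and says nothing of binding in these cells.

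The table also has a row for the ribosomal precursor RNA itself, Rn45s, which is no member and was chosen after its values were seen. Its CPM, scaled here to the library total, were 2058 to 3060 (median 2420) in irradiated dmPGE2 HSC at 24 h and 2075 to 3184 (2499) in irradiated vehicle HSC at 24 h. At 1 h, Rn45s had 809.6 to 2422 (1338) in irradiated dmPGE2 HSC and 959.8 to 1757 (1390) in irradiated vehicle HSC. In non-irradiated HSC, Rn45s had 1343 to 2656 (2287) with dmPGE2 and 1405 to 3913 (2793) with vehicle. Both irradiated groups were low at 1 h, and those at 24 h lay within the range of non-irradiated vehicle HSC. Against non-irradiated vehicle HSC at 1 h the log2 fold changes were −0.91 in irradiated dmPGE2 HSC (SE 0.168, adjusted p = 3.6e-05) and −0.88 in irradiated vehicle HSC (SE 0.168, adjusted p = 6.52e-05). Against the columns S42 to S70 alone they were −0.71 with dmPGE2 (adjusted p = 0.00365) and −0.69 with vehicle (adjusted p = 0.00678). Against S79 to S85 alone they were −1.09 with dmPGE2 (adjusted p = 2.67e-06) and −1.075 with vehicle (adjusted p = 3.45e-06).

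At 24 h the log2 fold change of Rn45s against all non-irradiated vehicle HSC was −0.06 in irradiated dmPGE2 HSC (adjusted p = 0.792). It was 0.00 in irradiated vehicle HSC (adjusted p = 0.997). Irradiated vehicle HSC at 24 h were higher in Rn45s than at 1 h by 0.88 (SE 0.186, adjusted p = 7.45e-05). Rn45s was also higher in the S79 to S85 column than in the S42 to S70 column of every same-tag non-irradiated vehicle pair. The part of column number in the rise from 1 h to 24 h was not tested. dmPGE2 against vehicle gave −0.02 in irradiated HSC at 1 h (adjusted p = 0.964). The fall in irradiated HSC at 1 h against non-irradiated dmPGE2 HSC did not pass the test (−0.62, SE 0.191, adjusted p = 0.273). Rn45s was thus low at 1 h in irradiated vehicle HSC, the group with the highest median of Rrn3 mRNA. The kit primes on poly(A) tails, the ribosomal DNA is repeated in the genome, and a read count cannot tell precursor from mature ribosomal RNA, so this row is an uncertain measure of precursor level.

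**Figure D3:**
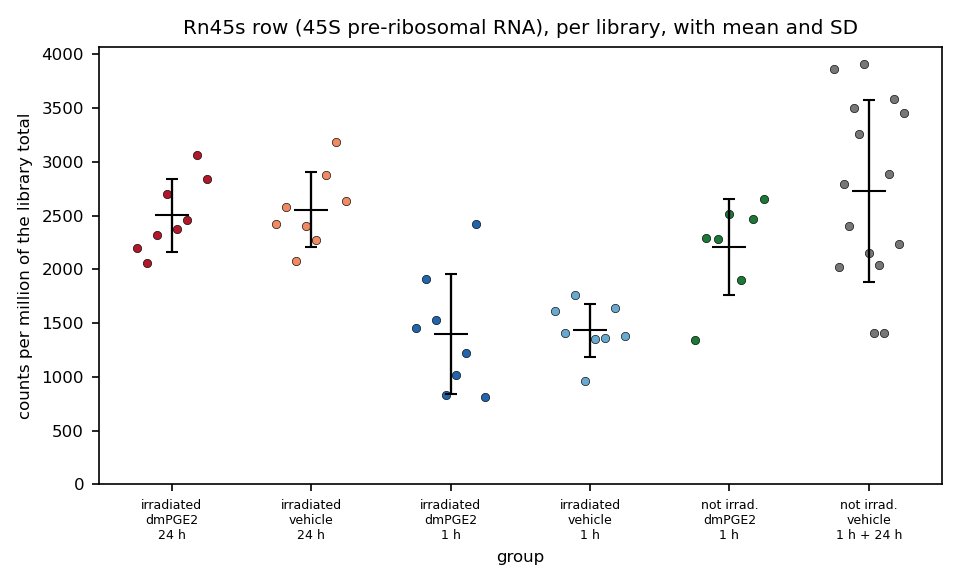
CPM of the Rn45s row, scaled to each library's total (points), by group, with the mean and SD (bars). The irradiated groups have medians of 2420 (dmPGE2) and 2499 (vehicle) at 24 h and 1338 (dmPGE2) and 1390 (vehicle) at 1 h, against 2793 in non-irradiated vehicle HSC.

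Among the snoRNP genes, all 3 of box C/D and 2 of the 4 of box H/ACA rose in irradiated vehicle HSC at 24 h against non-irradiated vehicle HSC. In that comparison 23.3% of all genes tested were higher and 26.5% lower. Nhp2, an RNA-binding core protein of H/ACA particles and of telomerase (chr11:51619773-51623714, plus strand), had 91.5 to 259 CPM (median 183) in irradiated dmPGE2 HSC at 24 h and 201 to 263 (225) in irradiated vehicle HSC at 24 h. At 1 h, Nhp2 had 110 to 213 (134) in irradiated dmPGE2 HSC and 76.9 to 158 (122) in irradiated vehicle HSC. In non-irradiated HSC, Nhp2 had 113 to 142 (126) with dmPGE2 and 82.7 to 143 (115) with vehicle. The 8 irradiated vehicle libraries at 24 h lay above every irradiated vehicle library at 1 h and every non-irradiated vehicle library. The log2 fold change was 0.99 against non-irradiated vehicle HSC (SE 0.126, adjusted p = 3.32e-09) and 0.90 against irradiated vehicle HSC at 1 h (SE 0.149, adjusted p = 1.18e-06). Nhp2 also rose against non-irradiated vehicle HSC in irradiated dmPGE2 HSC, by 0.57 at 24 h (SE 0.128, adjusted p = 0.000354) and by 0.40 at 1 h (SE 0.128, adjusted p = 0.0191), the second lost with the tag columns summed (adjusted p = 0.0918).

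Nop10, a small H/ACA core protein, had 170 to 410 CPM (median 333) in irradiated dmPGE2 HSC at 24 h, 294 to 397 (338) in irradiated vehicle HSC at 24 h, 166 to 262 (216) in irradiated vehicle HSC at 1 h and 183 to 312 (244) in non-irradiated vehicle HSC. It was higher in irradiated vehicle HSC at 24 h by 0.65 than in irradiated vehicle HSC at 1 h (SE 0.13, adjusted p = 3.38e-05), with ranges that did not overlap, and by 0.44 than in non-irradiated vehicle HSC (SE 0.112, adjusted p = 0.000961). Within the non-irradiated vehicle group, Nop10 had 218.6 to 312.3 CPM in the columns S79 to S85 and 182.8 to 258.4 CPM in S42 to S70.

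Gar1, the H/ACA protein that helps place the substrate RNA, had 32.7 to 66.7 CPM (median 45.7) in irradiated dmPGE2 HSC at 24 h and 52.8 to 73.6 (65) in irradiated vehicle HSC at 24 h, against 30.3 to 61.6 (54.3) in irradiated vehicle HSC at 1 h and 36.7 to 66.9 (56) in non-irradiated vehicle HSC. It was higher in irradiated vehicle HSC at 24 h than at 1 h by 0.33 (SE 0.128, adjusted p = 0.0289), a call lost without irradiated vehicle 1 h library 3. Dkc1, dyskerin, the pseudouridine synthase of the same particle, had 150 to 360 CPM (270) in irradiated dmPGE2 HSC at 24 h and 254 to 327 (282) in irradiated vehicle HSC at 24 h. At 1 h, Dkc1 had 203 to 425 (301) in irradiated dmPGE2 HSC and 134 to 283 (237) in irradiated vehicle HSC. In non-irradiated HSC, Dkc1 had 248 to 324 (282) with dmPGE2 and 202 to 324 (269) with vehicle. In no comparison of a pair of groups was Dkc1 called by edgeR's fit to all libraries. DESeq2 called it higher in irradiated dmPGE2 than in irradiated vehicle HSC at 1 h (0.36, adjusted p = 0.0456), and edgeR fitted to only the groups compared called it higher in irradiated vehicle HSC at 24 h than at 1 h (0.30, adjusted p = 0.028).

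Fibrillarin, Fbl, the methyltransferase of box C/D particles, had 66.2 to 148 CPM (median 100) in irradiated dmPGE2 HSC at 24 h and 121 to 161 (135) in irradiated vehicle HSC at 24 h. At 1 h, Fbl had 91 to 180 (113) in irradiated dmPGE2 HSC and 57.2 to 124 (105) in irradiated vehicle HSC. In non-irradiated HSC, Fbl had 87.2 to 119 (100) with dmPGE2 and 74.6 to 125 (107) with vehicle. It was higher in irradiated vehicle HSC at 24 h than in non-irradiated vehicle HSC (0.38, SE 0.119, adjusted p = 0.00669) and than in irradiated vehicle HSC at 1 h (0.42, SE 0.137, adjusted p = 0.00807). Nop56, which holds fibrillarin on the guide RNA, was higher by 0.36 than in non-irradiated vehicle HSC (SE 0.12, adjusted p = 0.0111) and by 0.35 than in irradiated vehicle HSC at 1 h (SE 0.139, adjusted p = 0.0319), the second lost without irradiated vehicle 1 h library 3.

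Nop58, the partner of Nop56, was the box C/D gene that was already higher in irradiated HSC at 1 h. It had 207 to 286 CPM (median 239) in irradiated dmPGE2 HSC at 1 h, 187 to 324 (274) in irradiated vehicle HSC at 1 h, 154 to 249 (221) in non-irradiated dmPGE2 HSC and 139 to 233 (175) in non-irradiated vehicle HSC. Against non-irradiated vehicle HSC it rose by 0.39 in irradiated dmPGE2 HSC at 1 h (SE 0.114, adjusted p = 0.00943, and 0.0649 with tag columns summed) and by 0.53 in irradiated vehicle HSC at 1 h (SE 0.114, adjusted p = 0.000422, and 0.00828 with tag columns summed). At 24 h it was higher by 0.42 in irradiated vehicle HSC (SE 0.114, adjusted p = 0.00188).

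Of the scaffold proteins Npm1 alone was called between groups. Npm1, nucleophosmin, a histone and ribosomal protein chaperone of the outer nucleolus (chr11:33152498-33163206, minus strand), had 388 to 812 CPM (median 648) in irradiated dmPGE2 HSC at 24 h and 750 to 969 (875) in irradiated vehicle HSC at 24 h. At 1 h, Npm1 had 408 to 733 (505) in irradiated dmPGE2 HSC and 434 to 602 (499) in irradiated vehicle HSC. In non-irradiated HSC, Npm1 had 416 to 615 (500) with dmPGE2 and 389 to 719 (525) with vehicle. Irradiated vehicle HSC at 24 h lay above every library of the other 2 vehicle groups, with a log2 fold change of 0.79 over irradiated vehicle HSC at 1 h (SE 0.119, adjusted p = 1.71e-07) and 0.69 over non-irradiated vehicle HSC (SE 0.101, adjusted p = 9.72e-08). Nucleolin, Ncl, had a higher median at 1 h than at 24 h, with 348 to 698 CPM (545) in irradiated dmPGE2 HSC at 24 h and 516 to 730 (559) in irradiated vehicle HSC at 24 h. At 1 h, Ncl had 409 to 1070 (652) in irradiated dmPGE2 HSC and 365 to 745 (663) in irradiated vehicle HSC. In non-irradiated HSC, Ncl had 439 to 813 (589) with dmPGE2 and 317 to 800 (622) with vehicle. Its ranges overlapped throughout, and neither Ncl, Nolc1 nor Mybbp1a passed the test in any comparison of all libraries.

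Large-subunit genes made up 8 of the 16 members that rose in irradiated vehicle HSC at 24 h against non-irradiated vehicle HSC, out of 14, with 1 lower. Of all genes tested, 23.3% were higher and 26.5% lower there. The PeBoW complex, which is needed to process the large-subunit RNAs, was called in all 3 of its parts: Wdr12 rose by 0.39 (SE 0.0766, adjusted p = 3.29e-05), Bop1 by 0.33 (SE 0.113, adjusted p = 0.0125) and Pes1 by 0.17 (SE 0.0665, adjusted p = 0.025). With the tag columns summed Wdr12 alone of these was called (adjusted p = 0.0565 for Bop1 and 0.0823 for Pes1). Wdr12 had 197 to 228 CPM (median 212) in irradiated vehicle HSC at 24 h, above all of irradiated vehicle HSC at 1 h (138 to 181, median 160) and of non-irradiated vehicle HSC (138 to 196, median 164). Bop1 had 158 to 186 CPM (166) in irradiated vehicle HSC at 24 h and 63.7 to 141 (130) in irradiated vehicle HSC at 1 h. The rise at 24 h over 1 h was 0.43 for Wdr12 (SE 0.0887, adjusted p = 5.94e-05) and 0.49 for Bop1 (SE 0.131, adjusted p = 0.00152). In irradiated dmPGE2 HSC at 24 h Wdr12 rose by 0.29 (SE 0.0768, adjusted p = 0.0021) and Pes1 by 0.17 (SE 0.0665, adjusted p = 0.0452, and 0.133 with tag columns summed) against non-irradiated vehicle HSC.

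Other large-subunit genes that rose in both irradiated groups at 24 h against non-irradiated vehicle HSC were Nip7, Nop16, Gnl3 and Rrs1. Nip7 rose by 0.30 in irradiated dmPGE2 HSC (SE 0.0846, adjusted p = 0.00417) and by 0.35 in irradiated vehicle HSC (SE 0.0845, adjusted p = 0.000549), and Nop16 by 0.19 in irradiated dmPGE2 HSC (SE 0.0742, adjusted p = 0.0407, and 0.113 with tag columns summed) and by 0.23 in irradiated vehicle HSC (SE 0.0741, adjusted p = 0.00818). Nop2, a cytosine methyltransferase of ribosomal RNA, passed in irradiated vehicle HSC (0.23, SE 0.0995, adjusted p = 0.0468, and 0.129 with tag columns summed). Rrp1, the only large-subunit gene that was lower at 24 h, had 278 to 338 CPM (median 297) in irradiated vehicle HSC and 283 to 429 (376) in non-irradiated vehicle HSC (−0.23, SE 0.0886, adjusted p = 0.0274, and −0.22 with 0.0842 against the columns S79 to S85 alone).

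Gnl3, the nucleolar GTPase nucleostemin, had 93.7 to 180 CPM (median 157) in irradiated dmPGE2 HSC at 24 h and 114 to 160 (131) in irradiated vehicle HSC at 24 h. At 1 h, Gnl3 had 83.5 to 144 (95.2) in irradiated dmPGE2 HSC and 92.7 to 175 (133) in irradiated vehicle HSC. In non-irradiated HSC, Gnl3 had 75.4 to 105 (93.6) with dmPGE2 and 76.1 to 139 (109) with vehicle. It rose against non-irradiated vehicle HSC by 0.42 in irradiated dmPGE2 HSC at 24 h (SE 0.112, adjusted p = 0.00242), by 0.28 in irradiated vehicle HSC at 24 h (SE 0.112, adjusted p = 0.0319) and by 0.31 in irradiated vehicle HSC at 1 h (SE 0.112, adjusted p = 0.0458). With the tag columns summed the calls in irradiated vehicle HSC were lost (adjusted p = 0.0697 at 24 h and 0.143 at 1 h). The dmPGE2 effect on Gnl3 at 24 h minus that at 1 h was 0.47 (SE 0.183, adjusted p = 0.0497), while the effects themselves were 0.14 at 24 h (adjusted p = 0.486) and −0.34 at 1 h (adjusted p = 0.0712).

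Rrs1, known in yeast for placing the small ribosomal RNA of the large subunit, was higher than in non-irradiated vehicle HSC in all 5 other groups. Rrs1 had 45.3 to 89.7 CPM (median 69.8) in irradiated dmPGE2 HSC at 24 h and 62.9 to 76.2 (71) in irradiated vehicle HSC at 24 h. At 1 h, Rrs1 had 72.5 to 99.7 (80.3) in irradiated dmPGE2 HSC and 45.4 to 78.9 (71.2) in irradiated vehicle HSC. In non-irradiated HSC, Rrs1 had 62.5 to 83.6 (65.8) with dmPGE2 and 40.0 to 70 (56) with vehicle. The irradiated dmPGE2 group at 1 h lay above all 15 non-irradiated vehicle libraries. Its log2 fold change was 0.64 (SE 0.0969, adjusted p = 7.42e-07), against 0.35 in irradiated vehicle HSC at 1 h (SE 0.0977, adjusted p = 0.0076) and 0.36 in non-irradiated dmPGE2 HSC (SE 0.102, adjusted p = 0.0106). At 24 h it was 0.30 in irradiated dmPGE2 HSC (SE 0.098, adjusted p = 0.0134) and 0.39 in irradiated vehicle HSC (SE 0.0977, adjusted p = 0.000886). With the tag columns summed, the calls in irradiated dmPGE2 HSC at 24 h (adjusted p = 0.0713), in irradiated vehicle HSC at 1 h (adjusted p = 0.0784) and in non-irradiated dmPGE2 HSC (adjusted p = 0.0913) were lost.

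Rrp1b, a nucleolar paralogue of Rrp1 (chr17:32036162-32062862, plus strand), was the member most raised by dmPGE2 at 1 h. Rrp1b had 49 to 92.7 CPM (median 78.7) in irradiated dmPGE2 HSC at 24 h and 51.5 to 88.1 (69.2) in irradiated vehicle HSC at 24 h. At 1 h, Rrp1b had 88.2 to 206 (124) in irradiated dmPGE2 HSC and 57.8 to 112 (87.3) in irradiated vehicle HSC. In non-irradiated HSC, Rrp1b had 64.1 to 144 (109) with dmPGE2 and 49.8 to 93.9 (75.6) with vehicle. The ranges of dmPGE2 and vehicle HSC overlapped at both times. The dmPGE2 effect at 1 h was 0.60 in irradiated HSC (SE 0.145, adjusted p = 0.00226) and 0.49 in non-irradiated HSC (SE 0.13, adjusted p = 0.00667, and 0.0513 with tag columns summed). The combined change of irradiated dmPGE2 HSC at 1 h against non-irradiated vehicle HSC was 0.80 (SE 0.124, adjusted p = 9.87e-07). At 24 h the dmPGE2 effect in irradiated HSC was 0.07 (adjusted p = 0.793), and it was below that at 1 h by a difference of −0.53 (SE 0.205, adjusted p = 0.0486), which was lost without irradiated vehicle 1 h library 3.

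Gnl2, a GTPase of late nuclear large-subunit assembly, had 92.1 to 157 CPM (median 127) in irradiated dmPGE2 HSC at 1 h, 77.1 to 130 (109) in irradiated vehicle HSC at 1 h, 100.6 to 136 (108) in non-irradiated dmPGE2 HSC and 60.5 to 121 (96.1) in non-irradiated vehicle HSC. It rose against non-irradiated vehicle HSC by 0.47 in irradiated dmPGE2 HSC at 1 h (SE 0.0962, adjusted p = 0.000145) and by 0.29 in non-irradiated dmPGE2 HSC (SE 0.101, adjusted p = 0.0475, and 0.158 with tag columns summed). In irradiated vehicle HSC it was lower at 24 h (70.3 to 87.6 CPM, median 83.5) than at 1 h (−0.38, SE 0.112, adjusted p = 0.00339). Noc2l, known in yeast for intranuclear transport of large-subunit precursors, had 284 to 501 CPM (371) in irradiated dmPGE2 HSC and 133 to 320 (297) in irradiated vehicle HSC at 1 h. Its dmPGE2 effect there, 0.41 (SE 0.139, adjusted p = 0.0371), was lost without irradiated vehicle 1 h library 3 (0.29, adjusted p = 0.138).

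Few calls fell on the small-subunit members. Of the 8, none was called by the fit to all libraries in irradiated HSC of any group against non-irradiated vehicle HSC, although 7 of 8 had log2 fold changes above 0 in irradiated vehicle HSC at 24 h (median 0.13, from −0.03 to 0.23). Of all genes tested, 36.4% were called with dmPGE2 and 49.7% with vehicle at 24 h. At 1 h these shares were 18.3% with dmPGE2 and 16% with vehicle. Of 48 other small-subunit processome genes, 21 were higher and 5 lower in irradiated vehicle HSC at 24 h, against 22 and 7 of 45 other large-subunit assembly genes. There 23.3% of all genes were higher and 26.5% lower. Some of the 8 were called under alternatives, among them Rrp9 (0.46, adjusted p = 0.000761) and Wdr75 (0.36, adjusted p = 0.00824) in irradiated dmPGE2 HSC at 24 h without libraries 5 to 7. Nob1, the endonuclease that makes the mature end of the small-subunit RNA, was the one called by the fit to all libraries, with 79.6 to 92.1 CPM (median 87.4) in non-irradiated dmPGE2 HSC and 82.1 to 131 (107) in non-irradiated vehicle HSC (−0.29, SE 0.0725, adjusted p = 0.0034, and 0.00855 with tag columns summed). The large-subunit gene Ftsj3 was not called in any comparison of all libraries of the groups, nor was Noc3l.

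Between dmPGE2 and vehicle in irradiated HSC, no member was called at both 1 h and 24 h. The calls at 1 h were Rrp1b and Noc2l (higher) and Polr1c and Rrn3 (lower), with a median log2 fold change over the 38 members of 0.11, against 0.01 over all genes. Those at 24 h were Npm1 (−0.50, SE 0.119, adjusted p = 0.00129), Gar1 (−0.47, SE 0.129, adjusted p = 0.00498), Nhp2 (−0.43, SE 0.148, adjusted p = 0.0289) and Fbl (−0.40, SE 0.137, adjusted p = 0.0278), with a median of −0.04 over the members and 0.03 over all genes. The difference itself, the effect at 24 h minus that at 1 h, was called for 11 members, 4 higher and 7 lower, where 25.4% of all genes were called (12.9% higher, 12.6% lower). The 4 higher were Polr1c, Polr1a, Rrn3 and Gnl3, with the values given above. The 7 lower were Nhp2 (−0.74, SE 0.21, adjusted p = 0.00691), Fbl (−0.66, SE 0.194, adjusted p = 0.00881), Gar1 (−0.60, SE 0.181, adjusted p = 0.0112), Noc2l (−0.59, SE 0.196, adjusted p = 0.0204), Npm1 (−0.56, SE 0.167, adjusted p = 0.00995), Rrp1b and Dkc1 (−0.51, SE 0.193, adjusted p = 0.0458, and 0.103 without irradiated vehicle 1 h library 3). Among the members 3 of 5 polymerase genes were higher and 3 of 4 H/ACA genes lower, while of the 10 further RNA polymerase I genes 1 was higher and 1 lower. The difference between roles was not tested.

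**Figure D4:**
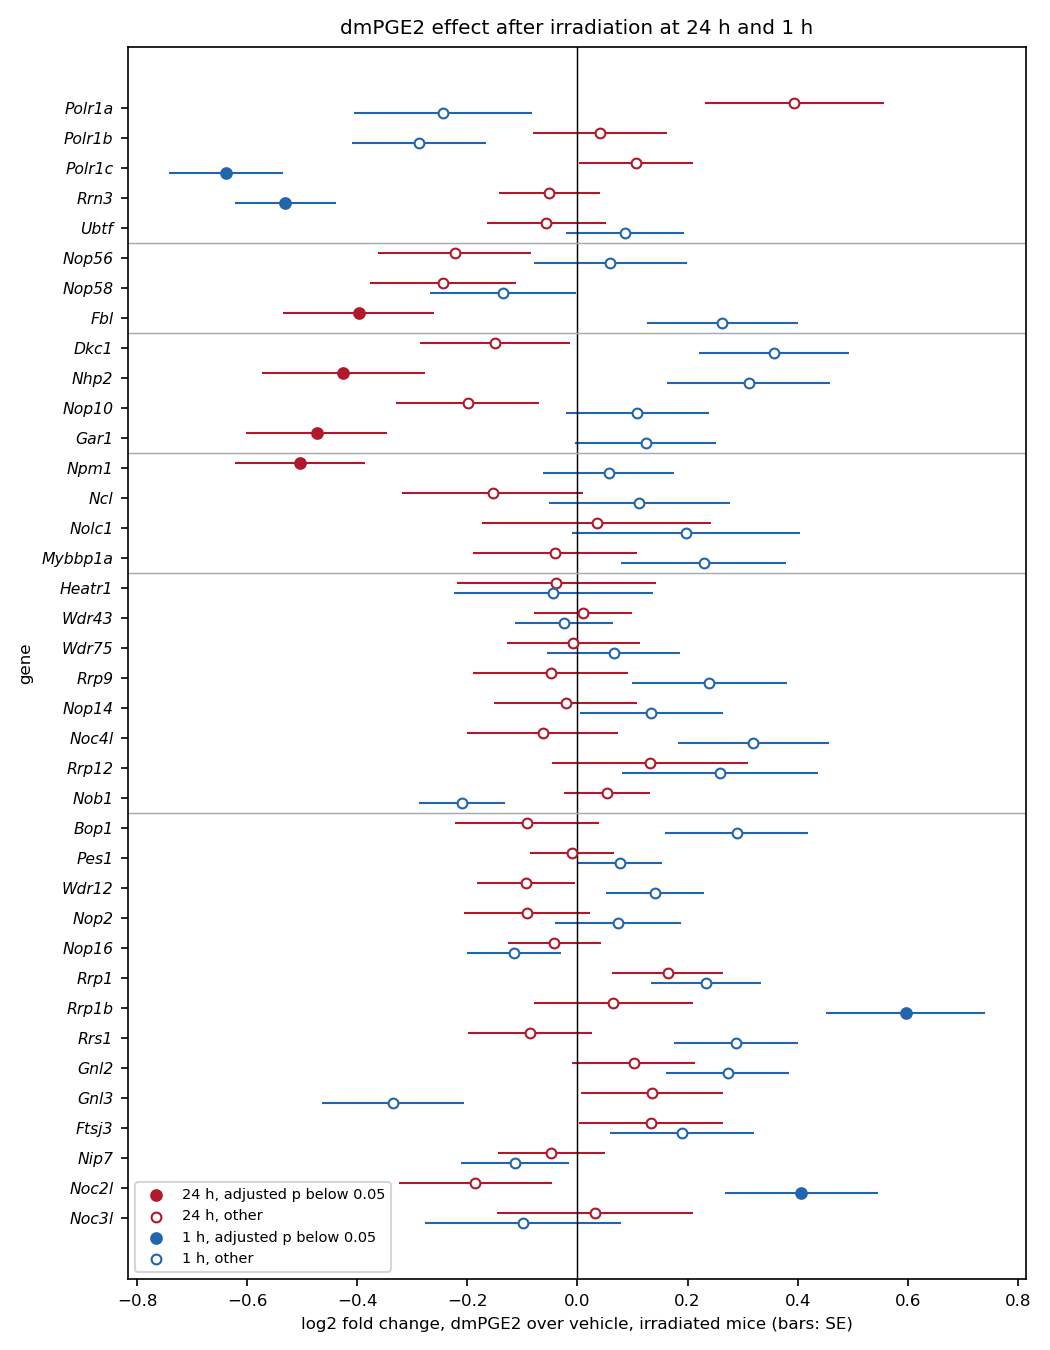
Log2 fold change of dmPGE2 over vehicle in irradiated HSC at 24 h and at 1 h for each member, with SE. Polr1c and Rrn3 lie at −0.64 and −0.53 at 1 h and near 0 at 24 h, whereas Npm1 and Gar1 lie near 0 at 1 h and at −0.50 and −0.47 at 24 h.

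The 4 calls at 24 h were lost without irradiated dmPGE2 libraries 5 to 7, all from male mice, though other libraries were low too. For Npm1 and Fbl, 6 of the 8 dmPGE2 libraries lay below every vehicle library, and for Gar1 and Nhp2 5 did. Without libraries 5 to 7, a fit with fewer libraries, none of the 38 members was called between dmPGE2 and vehicle at 24 h. Npm1 was then at −0.29 (adjusted p = 0.109), Gar1 at −0.30 (adjusted p = 0.183), Nhp2 at −0.10 (adjusted p = 0.707) and Fbl at −0.17 (adjusted p = 0.529). The median over the members was 0.11. Among male libraries alone the same 4 genes were called, Nhp2 at −0.91 (adjusted p = 0.0314), Npm1 at −0.77 (adjusted p = 0.0287), Gar1 at −0.76 (adjusted p = 0.0337) and Fbl at −0.68 (adjusted p = 0.0446). Among female libraries none of these was called, and Ftsj3 was higher (0.49, adjusted p = 0.0252). The difference between the sexes was not tested. Without libraries 5 to 7 the time difference kept Polr1c (0.88, adjusted p = 1.21e-05), Rrn3 (0.59, adjusted p = 0.00113) and Gnl3 (0.69, adjusted p = 0.00366), lost Polr1a (0.67, adjusted p = 0.0529) and gained Polr1b (0.50, adjusted p = 0.0395) and Nob1 (0.32, adjusted p = 0.0477), and no member was called lower. Against non-irradiated vehicle HSC, irradiated dmPGE2 HSC at 24 h without libraries 5 to 7 had 19 members higher and 0 lower, with a median of 0.29 over the members, in place of 9 higher and 1 lower with all 8 (median 0.12). Since these 3 libraries had the lowest means over the members in their group, leaving them out raises the members by construction. The share of all genes called without them is not given here, so the 19 calls have no background beside them.

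The libraries with low members at 24 h were also low in genes of DNA replication. The mean of 25 G1/S genes was 5.88, 5.65 and 5.70 log2 CPM in irradiated dmPGE2 24 h libraries 5, 6 and 7, against 6.54 to 7.10 in the other 5. By group the median was 6.64 in irradiated dmPGE2 HSC and 7.24 in irradiated vehicle HSC at 24 h, 6.80 in irradiated dmPGE2 HSC and 6.78 in irradiated vehicle HSC at 1 h, 6.78 in non-irradiated dmPGE2 HSC and 6.76 in non-irradiated vehicle HSC. All 20 G2/M genes but 2 rose in irradiated vehicle HSC at 24 h against non-irradiated vehicle HSC (18 of 20, median log2 fold change 1.35), and 18 of 20 were lower in irradiated dmPGE2 than in vehicle HSC at 24 h (median −0.94), as were 24 of the 25 G1/S genes (median −0.67). Other cell type markers moved too at 24 h. Summed megakaryocyte markers (7 genes, none at 0 in any library) had a median of 596.9 CPM (284.8 to 982.3) in irradiated dmPGE2 HSC and 1030 CPM (870.5 to 1795) in irradiated vehicle HSC at 24 h, against 550 CPM (447.3 to 778.5) in non-irradiated vehicle HSC. Summed HSC markers had medians of 4324 CPM in irradiated dmPGE2 HSC at 24 h, 3575 CPM in irradiated vehicle HSC at 24 h and 5365 CPM in non-irradiated vehicle HSC. Summed neutrophil markers had 492.2 CPM in irradiated dmPGE2 HSC at 24 h, 106.2 CPM in irradiated vehicle HSC at 24 h and 560.9 CPM in non-irradiated vehicle HSC. Summed B cell markers were lower in irradiated vehicle HSC at 1 h (38.85 to 50.75 CPM) than in non-irradiated vehicle HSC (54.06 to 76.09), with no overlap. Irradiated vehicle HSC at 24 h also had fewer genes detected (13250 to 14273) than those at 1 h (14363 to 15264), again with no overlap, and fewer CPM of endothelial markers (78.18 to 89.7) than non-irradiated vehicle HSC (97.41 to 144.5). The part of cell cycle, sex, genes detected and these markers in the members' values was not tested.

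**Figure D5:**
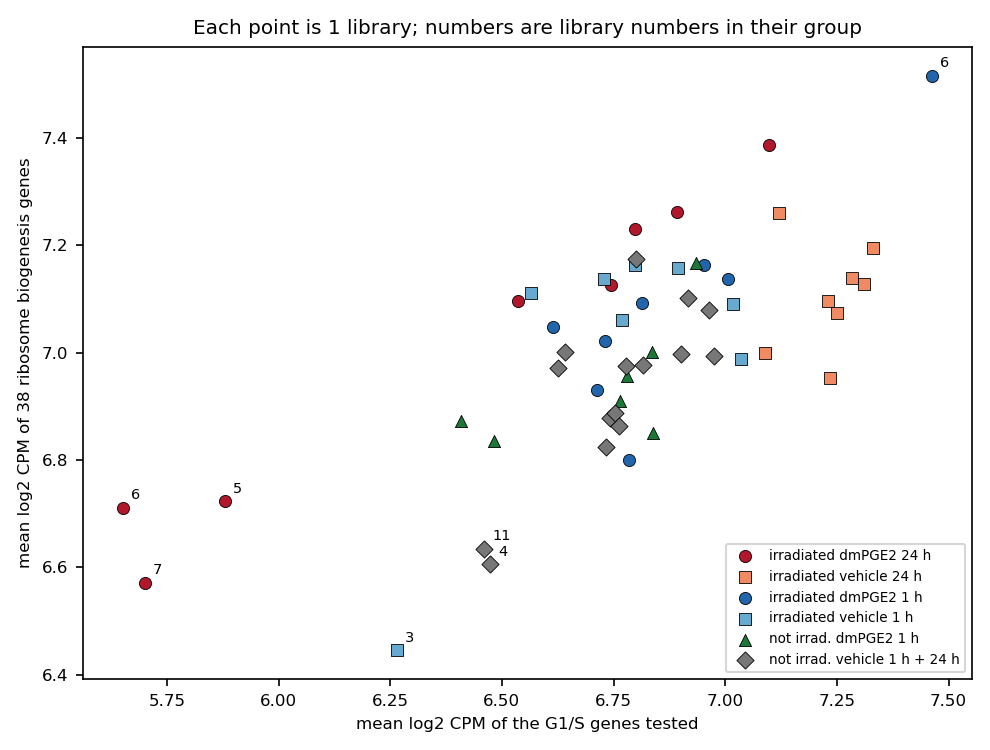
Mean log2 CPM of the 38 members (vertical) against that of 25 G1/S genes (horizontal), 1 point per library, coloured by group. Irradiated dmPGE2 24 h libraries 5 to 7 lie low on both axes (members 6.57 to 6.72, G1/S 5.65 to 5.88), and irradiated vehicle 1 h library 3 is lowest of all in the members (6.45).

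Under dmPGE2, irradiation at 1 h gave no call among the members. Between irradiated and non-irradiated dmPGE2 HSC, edgeR called 0 of 38 (background 0.377% of genes, 0.356% higher and 0.0209% lower), DESeq2 called 0, and 4 had an unadjusted p below 0.05, namely Rrp1b (log2 fold change 0.31), Noc4l (0.29), Rrs1 (0.27) and Polr1c (0.22). Of the members 36 of 38 had log2 fold changes above 0, with a median of 0.16 against 0.01 over all genes, and the means over the members per library overlapped (6.80 to 7.52 log2 CPM in irradiated and 6.83 to 7.17 in non-irradiated dmPGE2 HSC). Between libraries of the same tag, which paired these groups, that mean was higher in irradiated HSC in 6 of 7 pairs (differences of −0.05 to 0.35 log2 CPM, median 0.19), and the fit with the tag as replicate block called 0 of 38. In vehicle HSC at 24 h against 1 h, 8 members rose and 3 fell, where 50.9% of all genes were called (23.4% higher, 27.5% lower), so that fewer members were called than in the background. The 3 lower were Polr1a, Gnl2 and Ubtf. Time cannot be told apart from column number in this comparison. Of the called members, Npm1, Nop10 and Nhp2 were also higher, and Polr1a lower, in the S79 to S85 column of every same-tag non-irradiated vehicle pair. The other called members had no single direction across those pairs. The part of column number in these changes was not tested. Without irradiated vehicle 1 h library 3 the calls were 6 higher and 9 lower, and the additional lower ones were Nolc1 (−0.52), Rrp1, Rrp1b, Polr1b, Rrn3 (−0.28, adjusted p = 0.00794) and Wdr43. That library had the lowest members' mean of its group, so its removal lowers the members at 24 h against 1 h by construction.

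For dmPGE2 against vehicle at 1 h in irradiated HSC, the same vehicle library changed the balance of calls to 1 higher and 5 lower. Without it Polr1b (−0.38, adjusted p = 0.0183), Gnl3 (−0.41, adjusted p = 0.0237) and Nob1 (−0.27, adjusted p = 0.0121) were called lower, and Rrp1b, Polr1c and Rrn3 kept their calls. That vehicle library had the lowest mean over the members in its group. Its removal therefore lowers the members in dmPGE2 against vehicle HSC by construction. With the replicate block, which pairs libraries of the same tag at 1 h, Rrp1 (0.23, adjusted p = 0.0353) and Gnl2 (0.27, adjusted p = 0.015) were called higher in addition.

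A wider list of 128 other ribosome biogenesis genes was tested in the same fit. The shares of all genes called, given above with the members' counts, are the background of its counts too. In irradiated vehicle HSC at 24 h, 62 rose and 16 fell against non-irradiated vehicle HSC (background 23.3% higher and 26.5% lower), led by Bysl (0.85) and Pno1 (0.82), small-subunit assembly factors, with Dhx37 (−0.72) and Taf1a (−0.62) lowest. The counts were 36 and 6 in irradiated dmPGE2 HSC at 24 h (Bysl 0.63, Pno1 0.62; Dhx37 −0.62, Pelp1 −0.45), and at 1 h 30 and 4 in irradiated dmPGE2 HSC (Mphosph6 0.89, Bysl 0.85; Ttf1 −0.63, Utp23 −0.42), 16 and 4 in irradiated vehicle HSC (Riok2 0.65, Nol8 0.53; Exosc4 −0.39, Rpf2 −0.34) and 9 and 4 in non-irradiated dmPGE2 HSC (Mphosph6 0.71, Bysl 0.50; Utp23 −0.45, Taf1c −0.38). For irradiated vehicle HSC at 24 h against 1 h they were 48 and 20, from Rpf2 (1.02) and Exosc8 (0.90) to Dhx37 (−0.80) and Naf1 (−0.76).

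Among irradiated HSC, dmPGE2 against vehicle at 1 h gave 19 higher and 8 lower of the 128. The highest was Mphosph6, a factor bound to the RNA exosome, which trims ribosomal RNA (0.93, SE 0.108, adjusted p = 1.93e-09), followed by Bysl (0.56), and the lowest were Nol8 and Ttf1 (both −0.51). Of 14 exosome genes 6 were higher there, and of 10 further RNA polymerase I genes 3 were lower, where 7.04% of all genes were higher and 7.77% lower. At 24 h, 7 were higher and 16 lower in dmPGE2 than in vehicle HSC (Utp14a 0.46 and Cebpz 0.46; Exosc8 −0.66 and Wdr18 −0.46). The effect at 24 h minus that at 1 h was called for 7 higher (led by Taf1c at 0.85 and Nol8 at 0.67) and 30 lower (led by Mphosph6 at −1.20 and Exosc8 at −1.05), where 12.9% of all genes were higher and 12.6% lower. Of the 30, 10 were among the 14 exosome genes. Between irradiated and non-irradiated dmPGE2 HSC none of the 128 was called, and in the dmPGE2 by radiation term 1 was (Exosc4, 0.47).

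Of a list of 6 genes for nucleolar stress and Myc, Mycn fell at 1 h in every treated group against non-irradiated vehicle HSC. Its log2 fold change was −1.72 in irradiated dmPGE2 HSC (adjusted p = 3.66e-14), −1.1 in irradiated vehicle HSC (adjusted p = 1.45e-08) and −2.13 in non-irradiated dmPGE2 HSC (adjusted p = 4.49e-16). Mdm2, whose protein is held by free ribosomal proteins in nucleolar stress and which p53 induces, was lower in irradiated dmPGE2 than in irradiated vehicle HSC at 1 h (log2 fold change −1.78, adjusted p = 4.21e-18) and higher in irradiated vehicle HSC at 1 h than in non-irradiated vehicle HSC (2.16, adjusted p = 4.79e-26). In irradiated vehicle HSC at 24 h, Rpl5 (0.69) and Rpl11 (0.50), the ribosomal proteins that bind Mdm2, were higher and Myc lower (−0.65, adjusted p = 5.59e-06) than in non-irradiated vehicle HSC. In irradiated vehicle HSC at 1 h, Rpl11 was lower than in non-irradiated vehicle HSC (−0.34, adjusted p = 0.0188) and Rpl5 had a log2 fold change of −0.20 (adjusted p = 0.0966).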

How the data were processed

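RNA of sorted HSC was made into libraries with SMART-Seq v4 and Nextera XT, per the labels' protocols. These kits prime on poly(A) tails and record neither strand nor single molecules. The submitters' processing notes name STAR 2.5.2b, featureCounts of Subread 1.5.1 and mm10, without saying how reads that match several places were counted. The deposited values are whole read counts per gene and library, without scaling by the authors, per the file headers. Columns were matched to groups, not to single samples, by treatment and time in their names, and 0 were left unused. Of them 38 name no time: irradiated ones were placed at 1 h because the columns that name 24 h fill the 24 h groups, non-irradiated dmPGE2 ones because the labels give that group at 1 h alone, and the non-irradiated vehicle ones were kept as 1 group of 15.

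Genes were kept by edgeR 4.0.16 (filterByExpr, count minimum 10), scaled by TMM factors and fitted with 1 mean for each of 6 groups over 54 libraries (common dispersion 0.121, 48 residual degrees of freedom). The quasi-likelihood test was called at a Benjamini-Hochberg adjusted p of 0.05 over 14320 genes. SE is the log2 fold change divided by the root of its F value. CPM use TMM factors, log2 CPM add a prior count of 3, and Rn45s and marker sums are scaled to the library total. R was 4.3.3, limma 3.58.1 and DESeq2 1.42.0, and the scripts were tested on simulated data. Copies of members were sought with minimap2 2.31-r1302 in GENCODE vM21 transcripts.

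Alternatives were DESeq2, RLE or upper-quartile factors, no filter, a fold of 1.2 as the threshold, only the groups compared, a replicate block, 1 sex, the fit without irradiated dmPGE2 24 h libraries 5 to 7 (chosen because earlier results of these data showed them apart), and, chosen after seeing the data, tag columns summed, subsets of the non-irradiated vehicle columns and the fit without irradiated vehicle 1 h library 3. Same-tag libraries deviated together at 1 h (irradiated dmPGE2 and irradiated vehicle HSC in 8 of 8 pairs with r from 0.183 to 0.634), so the tags, which the column names give, were taken to pair those groups. Both irradiated groups at 1 h also share tags with non-irradiated vehicle columns S42 to S70, with r above 0.1 in 7 of 8 pairs each. Irradiated HSC at 1 h against non-irradiated vehicle HSC were nevertheless fitted without this pairing. At 24 h 4 of 8 pairs passed 0.1 and the tags were not taken to pair the libraries. Nothing else says that libraries are separate mice, so p-values measure the spread between libraries.

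The members and the other gene lists were chosen with earlier results of these data known. Named with full statistics are, per comparison, the 5 highest and the 5 lowest called members by log2 fold change, and named with their log2 fold change are the 2 highest and 2 lowest called genes of the wider list.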

Additional observations from a re-analysis of the deposited data

Results flagged for a closer look

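In 195 checks of the members' log2 CPM per group, a library lay far from all others of its group in 25, where chance gives about 1 in 20 groups. Irradiated vehicle 1 h library 3 accounts for 19 of them, always as the lowest of 8: the mean over the members was 6.45 (nearest other library 6.99). In that library the polymerase gene Polr1b was at 6.58 (nearest other 7.27) and the snoRNP genes Nop58 at 7.55 (8.02), Fbl at 5.84 (6.63), Dkc1 at 7.07 (7.75) and Gar1 at 4.93 (5.56). The scaffold genes Nolc1 at 5.54 (6.48) and Mybbp1a at 7.48 (8.21) stood equally apart. So did the small-subunit genes Wdr43 at 7.49 (7.83), Rrp9 at 5.37 (6.02), Rrp12 at 4.84 (5.57) and Nob1 at 6.43 (6.76). The large-subunit genes were Nop2 at 6.56 (7.34), Nop16 at 6.49 (6.97), Bop1 at 6.00 (6.86), Pes1 at 7.09 (7.41), Rrs1 at 5.51 (6.01), Ftsj3 at 5.77 (6.41) and Noc2l at 7.06 (8.11).

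The other 6 were spread over 4 libraries. Irradiated dmPGE2 1 h library 6 was high in Noc3l at 5.13 (nearest other 4.77) and Noc4l at 7.26 (6.73). Non-irradiated dmPGE2 library 3 was low in Nop58 at 7.27 (7.68), and library 5 of that group was high in Heatr1 at 7.18 (6.67) and Wdr43 at 7.98 (7.76). Irradiated vehicle 24 h library 8 was low in Noc3l at 3.86 (4.53).

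Of 76 tested differences between effects, 12 passed edgeR's quasi-likelihood test at an adjusted p below 0.05. For the dmPGE2 effect at 24 h minus that at 1 h, 11 of 38 members passed (28.9%), near the 25.4% of all genes. For the effect in irradiated minus that in non-irradiated HSC, 1 of 38 passed (2.63%), near the 2.97% of all genes. The dmPGE2 effect in irradiated HSC at 24 h minus that at 1 h was 0.75 for Polr1c, 0.64 for Polr1a, 0.48 for Rrn3 and 0.47 for Gnl3. It was −0.74 for Nhp2, −0.66 for Fbl, −0.60 for Gar1, −0.59 for Noc2l, −0.56 for Npm1, −0.53 for Rrp1b and −0.51 for Dkc1. At 1 h the dmPGE2 effect in irradiated minus that in non-irradiated HSC was −0.73 for Rrn3.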

How the results depend on the processing

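Of 77 calls of members over all comparisons, 634 values under alternatives gave 532 on the same side of the threshold, 102 that lost the call and 0 that changed sign. DESeq2 and RLE factors kept all 77. Counts of called members moved by over 1.5 times as follows, given without the share of all genes called under each alternative. With a fold of 1.2 as the threshold they were 1 for irradiated vehicle 1 h, 3 for irradiated vehicle 24 h, 2 for irradiated dmPGE2 1 h, 2 for irradiated dmPGE2 24 h and 1 for non-irradiated dmPGE2, each against non-irradiated vehicle HSC; 2 and 0 for dmPGE2 against vehicle at 1 h and 24 h; 6 for vehicle at 24 h against 1 h; and 3 for the time difference. With tag columns summed they were 2 for irradiated vehicle 1 h and 2 for non-irradiated dmPGE2; the last was 3 against columns S42 to S70. Against S79 to S85 they were 10 and 6 for irradiated vehicle and dmPGE2 HSC at 24 h. Without irradiated dmPGE2 24 h libraries 5 to 7, irradiated dmPGE2 24 h had 19 calls against non-irradiated vehicle HSC and 0 against irradiated vehicle HSC, and the time difference 5; without library 3 as well these were 19, 0 and 4. In females alone dmPGE2 against vehicle at 24 h gave 1 call. Fitting only the groups compared gave 2 there and 7 for the time difference. The cause was not tested.

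With the replicate block, dmPGE2 against vehicle gave 2 calls at 24 h (Npm1 and Gar1), where the tags were not taken to pair the libraries, and 6 at 1 h; non-irradiated dmPGE2 HSC gave 6, Polr1b (−0.31, adjusted p = 0.02) being added, and the block changed no other count by over 1.5 times. No paired analysis was possible for vehicle at 24 h against 1 h because these groups share no tags. Depth was 15049364 reads or more per library, and all members passed the filter; close copies or an unmarked strand limit Fbl, Npm1, Pes1, Rrs1 and Noc2l.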
